A study of Komagataella phaffii with 18 samples.

Results

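Cells of a heterothallic a-type strain of the methylotrophic yeast Komagataella phaffii were compared with wild-type cells after both had spent 24 h in acetate medium. The comparison rests on 6 of the 18 libraries of the series, 3 from the a-type strain and 3 from wild type, chosen by their labels. All strains have the background CBS2612. The a-type strain carries the genotype dic1-2Δ(a), the α-type strain set beside it carries dic1-2Δ(α), and wild type carries neither. The cultures had first grown in YPD, a rich medium, and were sampled there in exponential growth, so each acetate group has a YPD group of 3 libraries sampled before the shift. Each mating type is represented by a single strain, and its fixed mating type and its deletion cannot be told apart as sources of a difference from wild type. The labels do not say whether replicates are separate cultures. The p-values below therefore reflect how these libraries vary, which may be technical.

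Budding yeasts mate between a cells and α cells. Each type secretes its own peptide pheromone and carries the receptor for the pheromone of the other, and the genes at the mating-type locus set which of these it expresses. In K. phaffii the haploid wild type can switch its type by inverting a stretch of chromosome 4, so a wild-type culture can hold both types, which can mate when nutrients run short and then form diploids and spores. A heterothallic strain keeps one type and has no partner in its own culture. Acetate medium was used to bring on the expression of mating genes.

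Features are known here only by their IDs, which name the chromosome and a running number. The files do not pair the IDs with gene names, and 0 of the 5341 IDs matched the reference gene table, which is for strain GS115 (assembly ASM2700v1). The mating-type genes, the targets of the deletion and the functions of the features below were therefore not analysed here, and the labelled mating types could not be checked against marker genes.

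Depth was modest. Total estimated counts were 637339 to 733016 in the acetate wild-type libraries and 652341 to 673644 in the acetate a-type libraries, against 234044 to 309362 in the 9 YPD libraries of the 3 strains. Between 5232 and 5282 features had counts in each of the 6 compared libraries, and 6 features had 0 counts in all 9 acetate libraries. The biological coefficient of variation between replicates was 13.6% in wild type and 13.6% in a-type. Replicate pairs within a strain were further apart than counting alone gives (chi-square over its degrees of freedom, 2.07 to 3.73), and no library was treated as a repeat.

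A large part of the transcriptome differed between a-type and wild type in acetate. Of 4700 features with enough counts to be tested, 609 were higher in a-type and 782 were lower at an adjusted p under 0.05 (edgeR quasi-likelihood test, Benjamini-Hochberg over all 4700). These are 13% and 16.6% of the features tested, and 29.6% together. The differences lower in a-type reached further than those higher. The median difference was 0.93 on the log2 scale among the higher features and -1.01 among the lower ones, but 73 of the lower features changed by 3 or more on that scale against 5 of the higher ones. In bulk RNA, a lower share of cells expressing a gene and less RNA per expressing cell cannot be told apart.

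**Figure D1:**
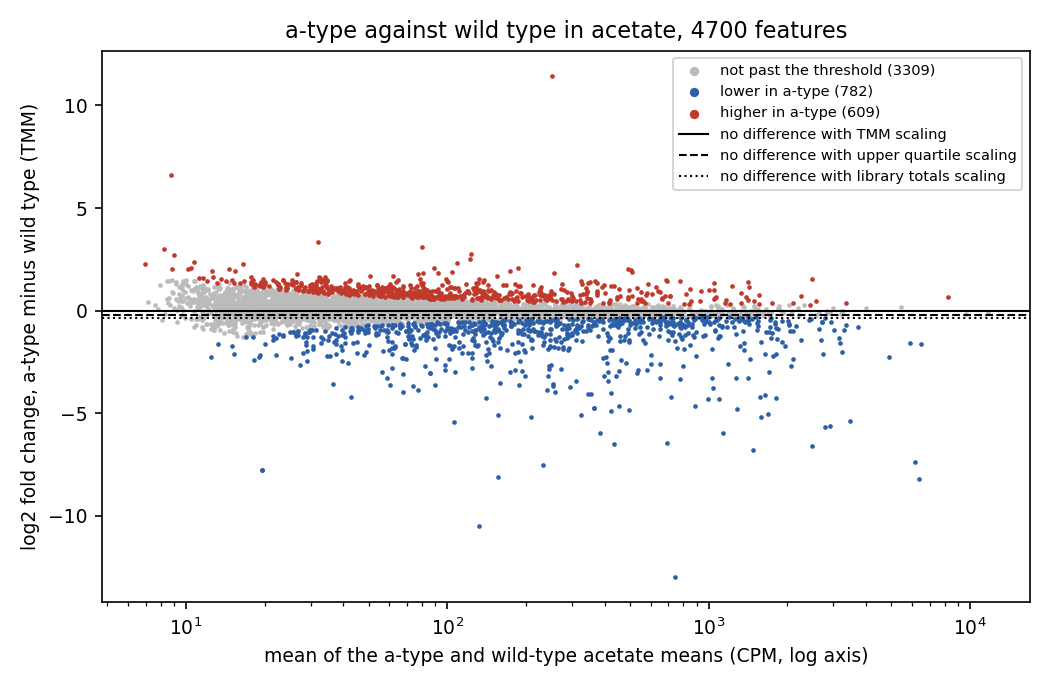
Each point is 1 of the 4700 tested features, with its mean level in CPM (counts relative to the TMM-adjusted library total, log axis) against its log2 fold change, a-type minus wild type, with TMM scaling. Lower features (blue, 782) reach -13.00, the higher ones (red, 609) lie mostly within a log2 difference of 2, and the horizontal lines show where a feature with no difference would lie under each of 3 scalings.

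Tested against a 2-fold change instead of no change, 230 features were lower in a-type and 33 were higher, which are 4.89% and 0.702% of those tested, so that 87.5% of these larger differences were decreases. The libraries of the strains did not overlap for any of the 230 lower features, nor for 32 of the 33 higher ones. The features were chosen on these same libraries, so this describes them and is no separate evidence. Among all features tested, the 3 a-type libraries lay above the 3 wild-type libraries in 18.9% and below them in 20.1%.

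The 230 lower features made up a large part of the RNA in wild type. They took 21.4%, 22.6% and 22.2% of the counts in the 3 wild-type acetate libraries, but 5.07%, 4.80% and 4.84% in the a-type ones. Their median level was 429 CPM in wild type, against 67.6 CPM in a-type, and 65 of them stood at 1000 CPM or more in wild type against 10 in a-type. In α-type in acetate they took 8.18 ± 0.375% of the counts (SD, n = 3). In YPD, where cells had not yet met acetate, their share was 4.80 ± 0.264% in wild type and 4.56 ± 0.289% in a-type (SD, n = 3 each). The acetate a-type share thus lay within 1 percentage point of both YPD shares, and the acetate wild-type share stood apart. The features were selected on the acetate wild-type and a-type values, so these 2 shares are a description. YPD libraries took no part in the choice. The α-type libraries entered it only through the filter, the scaling factors and the shared estimate of spread.

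The 33 higher features showed the opposite pattern at lower shares. They took 0.562%, 0.461% and 0.475% of the counts in acetate wild type and 1.98%, 2.02% and 2.06% in acetate a-type. In YPD the share was 1.67 ± 0.0737% in wild type, against 1.71 ± 0.244% in a-type, and in acetate α-type it was 1.64 ± 0.0896% (SD, n = 3 each). Acetate wild type had the lowest share of the 6 groups. These features were also selected on the acetate wild-type and a-type values, so which of those shares is larger follows from the choice.

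**Figure D2:**
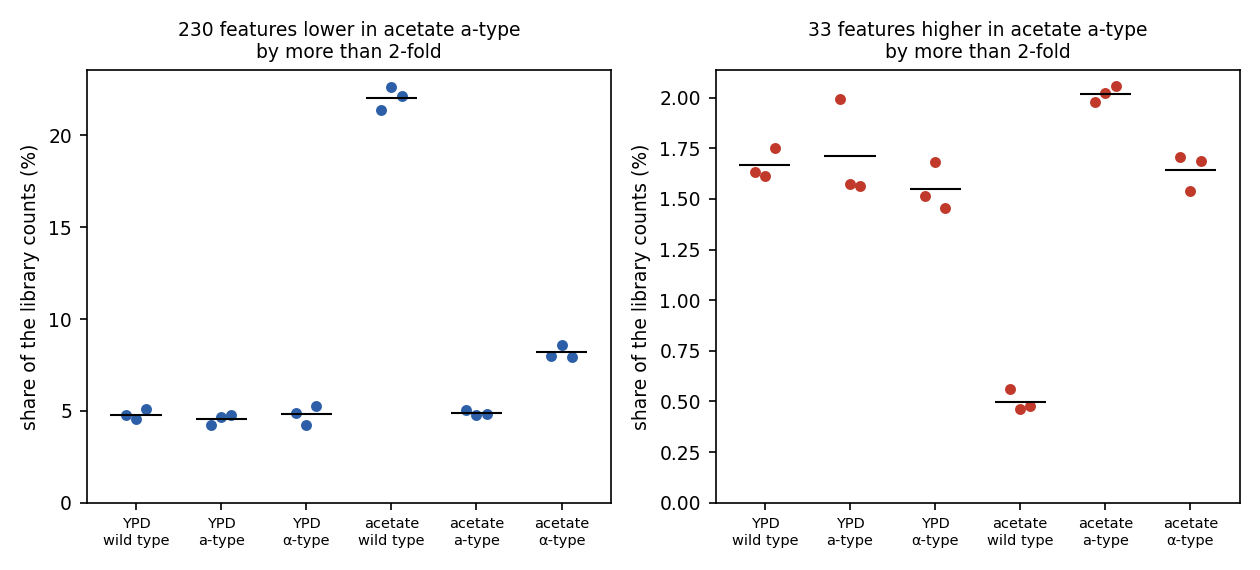
Points are libraries and lines are group means of the share of all counts, in percent, taken by the 230 features lower (left) and the 33 features higher (right) in acetate a-type by more than 2-fold. Acetate wild type stands apart from the other 5 groups in both panels, at 22.1% on the left and 0.499% on the right. The features were selected on the acetate wild-type and a-type values, so the difference between those groups is a description.

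The decreases with the smallest adjusted p belonged to a pair of neighbouring IDs on chromosome 2. PP7435_Chr2-0522, with a coding length of 1197 bases, had 14983, 10386 and 12861 CPM in the wild-type libraries and 39.4, 39.6 and 51.7 CPM in the a-type ones. The groups lay far apart, with a log2 difference of -8.19 (SE 0.15, adjusted p = 6.2e-50, edgeR). PP7435_Chr2-0521, with a coding length of 474 bases, had 11132, 13101 and 12465 CPM in wild type, against 91.4, 57.3 and 69.8 CPM in a-type, a log2 difference of -7.39 (SE 0.14, adjusted p = 2.33e-49, edgeR). By TPM, which corrects for length, PP7435_Chr2-0521 was the most abundant feature in acetate wild type, at 37900 TPM, and rank 792 in a-type, at 295 TPM. PP7435_Chr2-0522 went from rank 9, at 7636 TPM, to rank 3028, at 35.4 TPM. The a-type levels of both were near those of YPD, where PP7435_Chr2-0521 averaged 100.2 CPM in wild type, against 83.5 CPM in a-type. The next ID, PP7435_Chr2-0523, chosen after its values were seen, was also lower in a-type, at 43.6, 69.6 and 40.5 CPM against 114, 95.6 and 127 CPM in wild type (log2 difference -1.13, adjusted p = 0.000132, edgeR).

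Other decreases concerned very abundant features. PP7435_Chr3-2117 had 8325, 8819 and 9318 CPM in wild type, against 3031, 2916 and 2832 CPM in a-type, so that it fell by 1.59 on the log2 scale (SE 0.10, adjusted p = 2.94e-22, edgeR). PP7435_Chr4-0419 had 9110.5, 10562 and 9755 CPM in wild type, against 3637, 2869 and 3021 CPM in a-type (log2 difference -1.63, SE 0.10, adjusted p = 1.01e-21, edgeR). The strains did not overlap for either, which the rule for naming features required. Both features still ranked among the abundant ones in a-type, at ranks 50 and 251 by TPM. In acetate α-type, PP7435_Chr3-2117 averaged 4180 ± 132 CPM and PP7435_Chr4-0419 averaged 4708 ± 413 CPM (SD, n = 3 each). PP7435_Chr1-1164 lay at the other extreme, with 383, 514 and 489 CPM in wild type, against 2.81, 2.73 and 1.40 CPM in a-type, where it had 5 counts in all (log2 difference -7.53, SE 0.36, adjusted p = 6.19e-28, edgeR).

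Increases were found from low to high levels. PP7435_Chr2-0208, a short feature of 312 bases, had 9.15, 5.21 and 1.87 CPM in wild type, 10 counts in all, and 57.6, 58.7 and 58.7 CPM in a-type (log2 difference 3.33, SE 0.42, adjusted p = 7.06e-10, edgeR). It was more abundant in YPD, at 145 ± 38.4 CPM for wild type and 184 ± 44.6 CPM for a-type (SD, n = 3 each), and acetate wild type was the lowest of these 4 groups. CPM were scaled within each medium, so levels set across media are approximate. PP7435_Chr4-0412 had 220, 209 and 174 CPM in wild type, against 800.0, 783 and 837 CPM in a-type (log2 difference 2.00, SE 0.14, adjusted p = 3.46e-19, edgeR), below the 4000 ± 403 CPM of YPD wild type (SD, n = 3). PP7435_Chr4-0387 had 1297, 1298 and 1184 CPM in wild type, against 4041, 3564 and 3522 CPM in a-type (log2 difference 1.56, SE 0.11, adjusted p = 5.18e-20, edgeR). In the YPD libraries of both strains it had 47.9 to 107 CPM, so that, unlike the 2 others, it was above its YPD level in both. In acetate α-type, PP7435_Chr2-0208 averaged 56.2 ± 7.45 CPM and PP7435_Chr4-0387 averaged 3647 ± 324 CPM, near a-type. PP7435_Chr4-0412 averaged 558 ± 94.7 CPM there, between wild type and a-type (SD, n = 3 each).

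The most abundant of the increased features changed by less than 2-fold. PP7435_Chr1-0319 had 5906, 6940 and 6262 CPM in wild type, against 10348, 9753 and 10373 CPM in a-type (log2 difference 0.67, SE 0.09, adjusted p = 2.12e-08, edgeR). PP7435_Chr2-0457 had 2753, 3151 and 2895 CPM in wild type, against 4035, 3594 and 3665 CPM in a-type (log2 difference 0.36, SE 0.10, adjusted p = 0.00382, edgeR). The strains did not overlap for either, which the rule for naming features required. In acetate α-type, PP7435_Chr1-0319 averaged 9543 ± 839 CPM and PP7435_Chr2-0457 averaged 3455 ± 197 CPM (SD, n = 3 each). With all 18 libraries in the fit both lost the threshold, at log2 differences of 0.66 for PP7435_Chr1-0319 (adjusted p = 0.27, edgeR) and 0.35 for PP7435_Chr2-0457 (adjusted p = 0.367, edgeR).

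**Figure D3:**
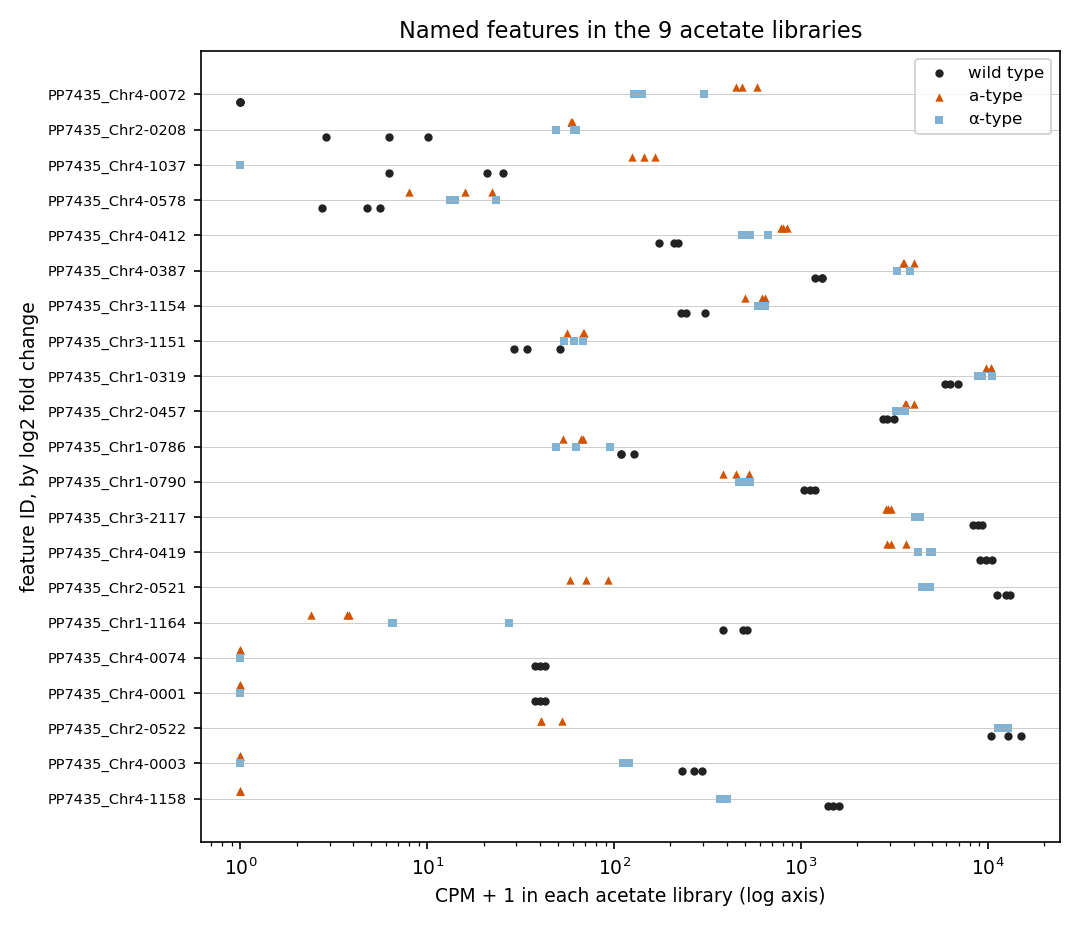
Points are the 9 acetate libraries, with CPM + 1 on a log axis, for the named features past the threshold between a-type and wild type, ordered by log2 fold change. Wild type (black circles) and a-type (orange triangles) do not overlap for any of them. All but the pairs that share reads were named on that condition. The α-type libraries (blue squares) lie near a-type for several features, among them PP7435_Chr2-0208, PP7435_Chr4-0387 and PP7435_Chr3-1154. They lie near wild type for PP7435_Chr2-0522 and at 0 for PP7435_Chr4-1037, PP7435_Chr4-0001 and PP7435_Chr4-0074.

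A few features had no counts in one strain in acetate. PP7435_Chr4-1158, with a coding length of 522 bases, had 1389, 1597 and 1474 CPM in wild type and 0 counts in every a-type library, of YPD as well. Set against 3 counts in the whole group as a floor, it was at least 1068-fold lower in acetate a-type. This bound, like the others below, covers counting error only, and a fitted fold change of such a feature is no bound. PP7435_Chr4-1158 ranked 24 by TPM in acetate wild type.

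The remaining cases lie at the low end of the chromosome 4 numbering, where features occur in pairs whose numbers add up to 75 (0001 with 0074, 0003 with 0072, 0004 with 0071, 0005 with 0070). PP7435_Chr4-0001 and PP7435_Chr4-0074 had equal counts in every library. Kallisto divides reads that match several transcripts, and the members of this pair cannot be told apart. Each of them had 36.6, 41.7 and 39.2 CPM in wild type and 0 counts in a-type, at least 28.1-fold lower. The acetate α-type libraries also had 0 counts of both, as did the YPD libraries of a-type and α-type, so the absence was not particular to a-type. PP7435_Chr4-0004 and PP7435_Chr4-0005, each with its equal partner, had log2 fold changes of -0.10 (adjusted p = 0.701, edgeR) and 0.24 (adjusted p = 0.69, edgeR), which did not pass.

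PP7435_Chr4-0003 and PP7435_Chr4-0072 changed places in acetate. PP7435_Chr4-0003 had 229, 294 and 267 CPM in wild type and 0 counts in a-type, and PP7435_Chr4-0072 had 0 counts in wild type and 581, 450.1 and 483 CPM in a-type. In α-type, replicate 1 had 0 CPM for the former and 300.3 CPM for the latter, while replicates 2 and 3 had 111 and 120 CPM for the former and 141 and 127 CPM for the latter. In YPD, wild type had 9, 12 and 11 counts of the former and 10, 13 and 11 of the latter. YPD a-type had 0, 30 and 17 counts of the former and 48, 31 and 18 of the latter. The exchange was thus not seen in YPD, and the division of reads varied within a strain. Values of either alone are therefore uncertain. With the pair summed, wild type had 227, 291 and 268 CPM and a-type had 584, 449 and 483 CPM. The sum was higher in a-type by 0.95 on the log2 scale (SE 0.15, adjusted p = 1.07e-07, edgeR), so the decrease of PP7435_Chr4-0003 turned into an increase, and 0.95 replaces the fitted 11.45 of PP7435_Chr4-0072.

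How many features counted as higher or lower depended on how the libraries were scaled. TMM, the scaling used above, gave mean factors of 0.851 ± 0.0435 in acetate wild type and 1.09 ± 0.0296 in a-type (SD, n = 3 each), and with it 43.8% of the calls were higher in a-type. Over all 4700 features, the log2 fold change then had a median of 0.08. Median-ratio scaling (RLE) gave nearly the same result, 576 higher and 801 lower. With upper-quartile factors the median moved to 0.28, and 1076 features were higher and 570 lower, a share of 65.4% higher. With library totals alone it moved to 0.43, and 1621 were higher and 471 lower, or 77.5% higher. With the median of all features set to 0, 501 were higher and 910 lower. The direction that held more features thus turned between TMM and upper-quartile scaling.

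The shift needed to turn the balance was small. When the TMM factors of the a-type libraries were moved in steps, 815 features were higher and 669 lower at a step of 0.1 on the log2 scale, and 466 were higher and 955 lower at a step of -0.1. At the ends of the range tried, a step of 0.3 gave 1416 higher and 503 lower, and a step of -0.3 gave 276 and 1327. TMM factors computed without the features past a 2-fold change gave 553 higher and 828 lower.

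**Figure D4:**
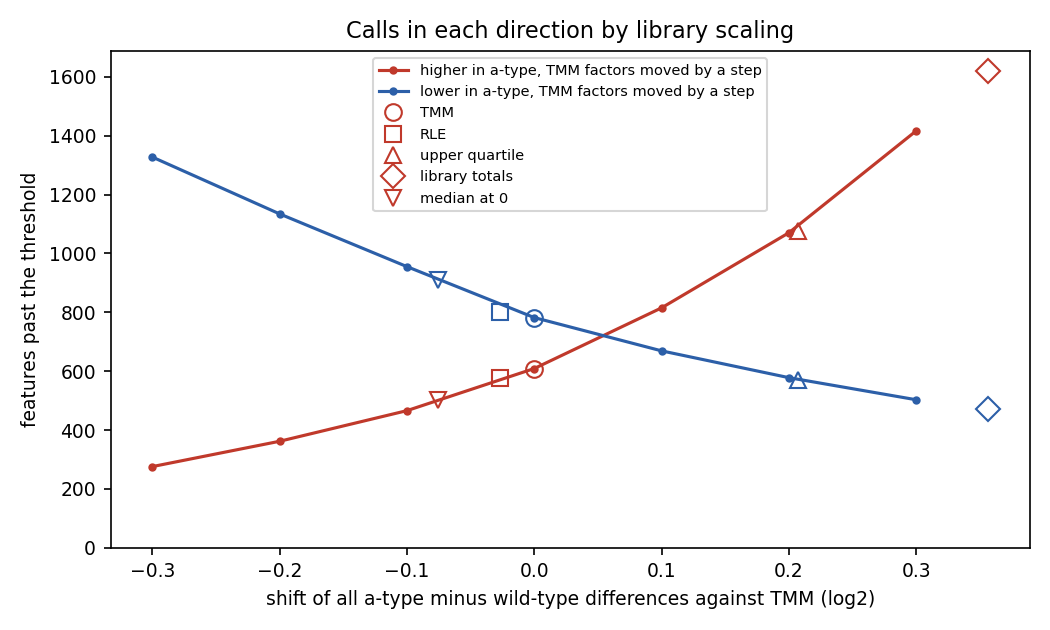
Lines give the number of features past the threshold, higher (red) and lower (blue) in a-type, when all differences are shifted against TMM by the log2 amount on the x axis, and open symbols mark 5 scalings at their own shift. The lines cross between 0 and 0.1, so that TMM (609 higher, 782 lower) and upper-quartile scaling (1076 higher, 570 lower) lie on opposite sides.

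Part of the calls was shared by all 6 scalings tried, whose median log2 fold changes ran only from 0.00 to 0.43. Over 6 scalings (TMM, TMMwsp, RLE, upper quartile, totals and median at 0), 501 features were called higher in each and 471 lower in each, which are 82.3% and 60.2% of the calls made with TMM. No feature, 0 of 4700, was called higher under one scaling and lower under another. All 230 and all 33 features past a 2-fold change with TMM were called in their direction under each of the 6. With shifts this small, these 2 results were largely fixed in advance. The shared 501 and 471 are the counts of the end settings, median at 0 and totals alone. They are not free of scaling, since a step of -0.3 in the TMM factors left 276 features higher. Of the lower calls, 311 were lost with totals alone, where 1012 features that TMM did not call were called higher. Tested against 2-fold under the other scalings, the counts stayed in favour of decreases, with 60 higher and 175 lower for upper quartile and 92 higher and 154 lower for totals.

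The libraries differed in composition. In acetate wild type, 47.6 ± 1.11% of the counts came from the 782 lower features, against 25.2 ± 0.555% in acetate a-type (SD, n = 3 each). These features were called in the same libraries, so the direction of this difference follows from the choice. Their share was 29.1 ± 0.38% in acetate α-type, 23.9 ± 0.557% in YPD wild type and 23.7 ± 1.53% in YPD a-type (SD, n = 3 each). The 10 features with most counts in wild type took 7.80% to 7.94% there and 4.03% to 4.53% in a-type, and their choice on wild type favours a larger share there. The part of this composition in the counts of calls was not tested apart from the scalings above.

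Calls were spread over abundance unevenly. In the lowest quartile of mean level, under 29.0 CPM, 6.47% of features were higher in a-type and 2.98% lower, while in the highest, above 186 CPM, 13.7% were higher and 37.2% lower. The median log2 fold change went from 0.28 in the lowest quartile through 0.20 and 0.06 to -0.17 in the highest. Fewer counts allow fewer calls. These values are with TMM, and since upper-quartile scaling and totals alone move the median of all features up by 0.21 and 0.36, the sign of the median in the highest quartile depends on the scaling. Of the 230 features lower by more than 2-fold, 139 lay in the highest quartile.

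By coding length, only the lower calls were spread evenly. The share of lower features stayed near that of all features in every length quartile, and was highest, 18.1%, in the third. The share of higher features went from 8.57% in the shortest quartile, up to 822 bases, to 17.0% in the longest, above 1866 bases. The median log2 fold change went from 0.03 in the shortest quartile to 0.15 in the longest. Length was not separated from the number of counts.

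The 4 nuclear chromosomes had like shares. Between 11.5% of tested features (chromosome 4) and 14.0% (chromosome 1) were higher in a-type, and between 15.5% (chromosome 2) and 18.1% (chromosome 1) were lower. Among the 91 tested features within the first 25 IDs of a chromosome, 25.3% were lower and 7.69% higher, and among the 83 within the last 25 IDs, 21.7% were lower and 10.8% higher, beside 16.6% and 13% overall. No test was made of these shares.

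Calls in the same direction seldom formed long runs of consecutive IDs. There were 38 runs of 3 or more lower features and 11 of higher ones. The 2 longest lower runs held 5 features, and the one on chromosome 1 reached from PP7435_Chr1-0786 to PP7435_Chr1-0790. PP7435_Chr1-0790 had 1032, 1184 and 1111 CPM in wild type, against 529, 383 and 445 CPM in a-type (log2 difference -1.29, SE 0.13, adjusted p = 2.24e-13, edgeR), and PP7435_Chr1-0786 had 108, 127 and 108 CPM against 52.0, 66.8 and 65.6 CPM (log2 difference -0.89, SE 0.24, adjusted p = 0.0023, edgeR). PP7435_Chr1-0786 lost the threshold with library totals alone (log2 difference -0.53, adjusted p = 0.0828, edgeR) and with all 18 libraries in the fit (-0.91, adjusted p = 0.0873). The longest higher run held 4, from PP7435_Chr3-1151 to PP7435_Chr3-1154. PP7435_Chr3-1154 had 303, 242 and 228 CPM in wild type, against 499, 640 and 619 CPM in a-type (log2 difference 1.18, SE 0.14, adjusted p = 1.78e-10, edgeR). In acetate α-type the ends of both runs lay near a-type. PP7435_Chr1-0786 and PP7435_Chr1-0790 averaged 67.7 ± 23.9 and 504 ± 36.5 CPM there (SD, n = 3 each). PP7435_Chr3-1151 and PP7435_Chr3-1154 averaged 59.7 ± 6.94 and 607 ± 32.0 CPM (SD, n = 3 each). PP7435_Chr3-1151, at 37.1 ± 11.7 against 63.4 ± 7.40 CPM (SD, n = 3 each; log2 fold change 0.75, adjusted p = 0.0347, edgeR), lost the threshold without either of wild-type replicates 2 and 3 or a-type replicates 2 and 3, where its adjusted p was between 0.0907 and 0.177, and with the median at 0 (0.0608), DESeq2 (0.0691) or 18 libraries (0.171).

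Whether the a-type strain differed from wild type in the same way as the other heterothallic strain was tested directly, as a-type against α-type in the same fit. Only 55 features, 1.17% of the 4700, differed between them, 14 higher and 41 lower in a-type (0.298% and 0.872%). Each of the 55 had also passed against wild type, and both tests use the same a-type libraries. A p that misses the threshold does not show that the strains act alike. Without α-type replicate 2, 36 features passed.

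Of the 55, 41 were lower in a-type than in both other strains. They include PP7435_Chr4-0003, which with its copy summed was instead higher in a-type than in wild type, by 0.95, and than in α-type, by 0.92 on the log2 scale (adjusted p = 2.11e-06, edgeR). Their median difference was -3.01 from wild type and -1.02 from α-type on the log2 scale, and for 40 of them the α-type mean lay between those of a-type and wild type. PP7435_Chr2-0522 was the clearest, since α-type had 12105 ± 738 CPM (SD, n = 3), close to the 12743 ± 2301 CPM of wild type, against 43.5 ± 7.05 CPM in a-type. PP7435_Chr3-1699, chosen after its values were seen, had 3612, 2889 and 3323 CPM in wild type, against 103, 120.04 and 79.6 CPM in a-type and 2423, 2775 and 2528 CPM in α-type. The exception to the order was PP7435_Chr4-0073, also chosen after its values were seen, which averaged 45.9 CPM in a-type, 202 CPM in α-type and 195 CPM in wild type. PP7435_Chr4-0072, its neighbour by ID, was called higher in a-type.

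Another 13 features, PP7435_Chr4-0072 among them, were higher in a-type than in both. For 7 of them the α-type mean lay between, and for 6 the wild-type mean did. PP7435_Chr4-1037, of 537 bases, had 19.8, 5.21 and 24.3 CPM in acetate wild type, 124, 143 and 163 CPM in a-type, whereas α-type had 0 counts. It was higher in a-type than in wild type by 3.11 on the log2 scale (SE 0.32, adjusted p = 8.95e-13, edgeR). PP7435_Chr4-0893, chosen after its values were seen, had 226, 169 and 181 CPM in wild type, against 658, 908 and 802 CPM in a-type, and only 19.5, 23.8 and 5.44 CPM in α-type. It differed from wild type by 2.03 on the log2 scale (adjusted p = 4.5e-17, edgeR). PP7435_Chr3-2788, chosen the same way, followed that order, averaging 842 CPM in a-type, 165 CPM in α-type and 517 CPM in wild type. A single feature, PP7435_Chr4-1169, named after its values were seen, lay below wild type in a-type, at 181, 213 and 151 against 1023, 1151 and 1184 CPM, but above α-type, at 77.8, 81.05 and 76.2 CPM.

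**Figure D5:**
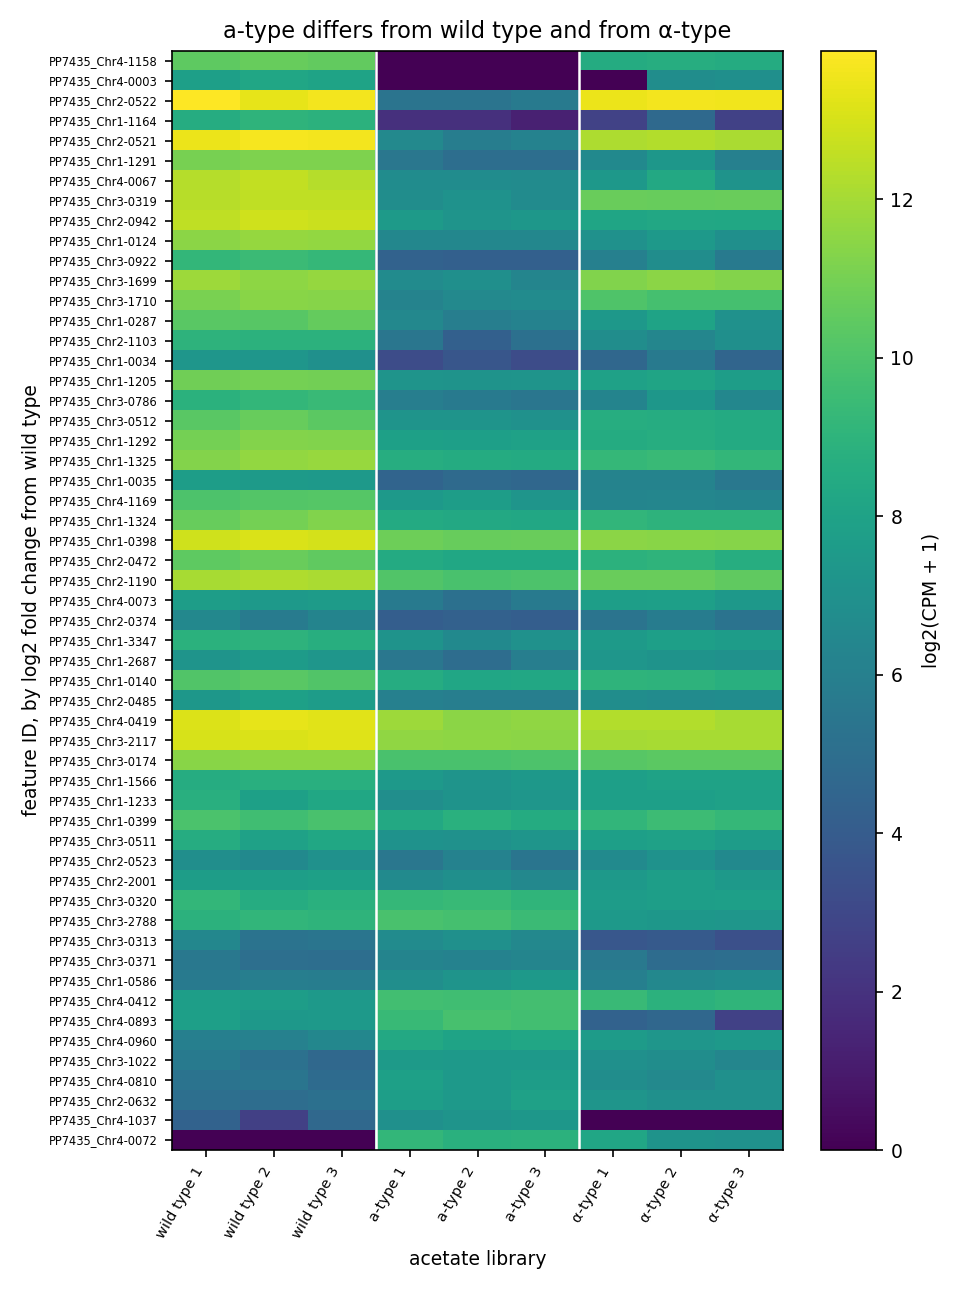
Rows are the 55 features that differ from wild type and from α-type, columns are the 9 acetate libraries, and colour is log2(CPM + 1). In most of the upper rows the a-type columns are the darkest, with PP7435_Chr4-1158 at 0 in all 3, and in the 13 lowest rows they are the brightest.

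Of the 55 features, 17 stood next to another of them by ID number. The pairs included PP7435_Chr1-0034 with PP7435_Chr1-0035, PP7435_Chr1-1291 with PP7435_Chr1-1292 and PP7435_Chr1-1324 with PP7435_Chr1-1325, all lower in a-type than in both strains. For PP7435_Chr3-0319 and PP7435_Chr3-0320 the neighbours went in opposite directions: the former fell from 5726 CPM in wild type to 116 CPM in a-type, with 1651 CPM in α-type, and the latter had 600.4 CPM in a-type, 466 CPM in wild type (adjusted p = 0.0414, edgeR) and 216 CPM in α-type. These IDs were chosen after their values were seen.

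In YPD the same strains showed few differences. Of 3646 features tested there, 2 passed between a-type and wild type, which is 0.0549%, and 204 had an unadjusted p under 0.05. DESeq2 called 5, and edgeR called 20 with all 18 libraries in 1 fit. PP7435_Chr4-1037 had 3.52, 7.14 and 9.57 CPM in YPD wild type and 414, 246 and 258 CPM in YPD a-type (log2 difference 5.46, adjusted p = 0.000226, edgeR), and was higher in a-type in both media. PP7435_Chr4-1158 had 215, 64.3 and 95.7 CPM in YPD wild type and 0 counts in YPD a-type (adjusted p = 0.00996, edgeR), and was lower in both. YPD libraries had less depth than acetate ones, and the low count does not show that the strains were alike there. YPD replicates could also lie far apart, as for PP7435_Chr1-0319 at 1031, 450 and 244 CPM in wild type. Its standard error was 0.49 in YPD and 0.09 in acetate. With all 18 libraries in 1 fit, which share one spread, the acetate calls fell to 181 higher and 435 lower. The replicate spread in YPD was not summarised over features.

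Across features called in acetate, the YPD difference was near 0. The 638 lower features that could be tested in YPD had a median log2 fold change of -0.92 in acetate and 0.02 in YPD, where 307 of them were lower in a-type. The 512 higher features had medians of 0.88 in acetate and 0.10 in YPD, where 295 of them were higher, and all 3571 features tested in both media had medians of 0.05 and 0.04.

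The difference between media was itself tested, with all 18 libraries in one fit. The difference between a-type and wild type was not the same in acetate and YPD for 330 of 4783 features, or 6.9%, with 86 more positive in acetate (1.8%) and 244 more negative (5.1%). Of the features lower in acetate, 238 were among the 244, and of those higher, 71 were among the 86. These tests share the acetate libraries. For PP7435_Chr2-0522 the difference between media was -8.63 (SE 0.44, adjusted p = 1.11e-12, edgeR). PP7435_Chr2-0208 had a positive difference of 3.02 (SE 0.51, adjusted p = 0.000313, edgeR). A single feature lower in acetate had a positive difference, PP7435_Chr1-2225 (chosen after its values were seen), at 4.65 (SE 1.40, adjusted p = 0.0478, edgeR). It had 104, 177 and 179 CPM in acetate wild type and 108, 80.5 and 74.0 CPM in acetate a-type. In YPD it had 17.6, 7.14 and 9.57 CPM in wild type and 0 counts in a-type. These YPD values lie near the floor, as 3 counts stand for about 10.1 to 12.8 CPM in the YPD wild-type libraries. The fitted 4.65 is thus no bound.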

How the data were processed

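Polyadenylated RNA was sequenced in 18 libraries, 3 for each of 6 groups, and the 9 acetate libraries carry the main comparison. The authors deposited 1 kallisto table per library with estimated counts, TPM, length and effective length for 5341 features, per the file headers. Tools listed in the submitters' processing notes, with neither role nor order, are DESeq2, FastQC (0.11.2), kallisto, SAMtools, TopHat2 and Trim Galore (0.4.2). No genome build is named there. TPM values, which the authors deposited, served only to rank levels between features. The 9 tables of normalized counts were not used. Since 99.9% of the lengths divide by 3, they are given as coding lengths.

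After rounding to whole numbers, the estimated counts entered edgeR 4.0.16 (R 4.3.3): filterByExpr, TMM factors, 1 mean per group, quasi-likelihood tests, Benjamini-Hochberg adjustment over all features tested and a threshold of 0.05. The a-type against wild-type and a-type against α-type tests in acetate came from 1 fit of the 9 acetate libraries, the YPD test from the 9 YPD libraries and the difference between media from all 18. DESeq2 1.42.0 was an alternative. CPM are counts relative to the TMM-adjusted library total, scaled within each medium. The standard error is the log2 fold change divided by the root of the F statistic. The tests were checked on simulated counts.

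Features, rules and lists were chosen with earlier results of these data known. Features named are, with at most 2 per direction, those with the largest change, smallest adjusted p, highest CPM, a like difference from α-type, 0 counts in one strain in acetate, a like difference in YPD, the largest difference between media, the ends of the longest runs of IDs, and pairs that share reads. All but the pairs needed 10 CPM in the higher group and libraries that did not overlap. A rule for features whose call turned between scalings found none. Gene lists by symbol could not be matched to IDs and were not used.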

Additional observations from a re-analysis of the deposited data

Results flagged for a closer look

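The difference between a-type and wild type was not the same in acetate and YPD for 330 features by the interaction test in 18 libraries, and the named features among them are given here with the log2 difference between media, acetate minus YPD (edgeR, Benjamini-Hochberg adjusted). It was -11.21 for PP7435_Chr1-1164 (adjusted p = 0.00623), -8.63 for PP7435_Chr2-0522 (1.11e-12), -7.06 for PP7435_Chr2-0521 (3.05e-10) and -1.72 for PP7435_Chr4-0419 (adjusted p = 0.00878). It was 3.02 for PP7435_Chr2-0208 (adjusted p = 0.000313), 1.85 for PP7435_Chr4-0412 (0.000193) and 1.52 for PP7435_Chr3-1154 (0.00359). PP7435_Chr4-0578 had 4.08 (SE 1.09, adjusted p = 0.0209), with 4.57, 1.74 and 3.74 CPM in acetate wild type, 6 counts in all, and 6.98 to 21.1 CPM in acetate a-type. Its YPD difference was -2.02 and did not pass (adjusted p = 0.814, edgeR). That value rested on 25, 3 and 14 counts in YPD wild type and 0, 8 and 4 in YPD a-type. Its acetate difference of 2.02 (adjusted p = 0.0168) lost the threshold without wild-type replicate 2 (1.74, adjusted p = 0.0889), without a-type replicate 1 (1.65, adjusted p = 0.111) and with 18 libraries (1.99, adjusted p = 0.125). The values of -10.28 for PP7435_Chr4-0003 (adjusted p = 0.000733) and 9.73 for PP7435_Chr4-0072 (4.23e-07) come from features whose reads kallisto may divide. In YPD, PP7435_Chr1-1164 had counts in 1 a-type library and in no wild-type library, so its fitted value is no bound, and neither are those of the pair. No test for a single outlying library was made within groups of 3.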

How the results depend on the processing

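Scalings moved the counts as follows. Features higher in a-type in acetate were 1076 with upper-quartile scaling, 1621 with totals alone (471 lower), 1070 and 1416 with a-type factors moved by 0.2 and 0.3 (503 lower at 0.3), and 362 and 276 at -0.2 and -0.3 (1327 lower at -0.3), against 609 and 782 in the main analysis. With all 18 libraries fitted together 181 were higher and 435 lower, and against a 2-fold change 33 and 230. The 33 became 60 with upper-quartile scaling, 92 with totals alone and 13 with 18 libraries. The moved factors, the factors without features past 2-fold and the other settings of the 2-fold test were chosen after seeing the data. Leaving out each compared library in turn gave 459 to 622 higher, 664 to 796 lower, and 28 to 47 higher and 208 to 228 lower past 2-fold. It gave 36 to 54 for a-type against α-type, 1 to 3 for YPD (1 without wild-type replicate 1 or a-type replicate 2) and 235 to 369 for the difference between media. DESeq2 called 5 features in YPD and 18 libraries 20, in place of 2. With copies summed PP7435_Chr4-0003 turned to 0.95. PP7435_Chr4-0004 and PP7435_Chr4-0071, which never passed, turned to 0.11 with upper-quartile scaling and 0.26 with totals alone. Of 496 values of 25 named features under alternatives, 471 kept direction and side of the threshold and 20 lost the threshold.

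Replicate numbers did not pair the a-type and wild-type libraries of acetate: deviations of same-numbered libraries correlated at -0.199, -0.175 and -0.0371, and no library correlated best with its own number. Whether YPD and acetate libraries of a strain pair by number was not checked, and no fit modelled such a pairing. With the replicate number as a block, 550 features were higher and 742 lower, 52 differed between a-type and α-type, 2 in YPD and 302 between media. The deposited normalized counts of these groups write decimals with commas, so a limma test of them was not run.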
